A study of Mus musculus with 4 samples.

Results

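The genes described here are Il2 and the common gamma chain receptor genes, a set of 10 genes out of 23990 gene symbols measured. They were taken by name: the ligand Il2, the 8 receptor genes Il2ra, Il2rb, Il2rg, Il7r, Il15ra, Il4ra, Il9r and Il21r, and the kinase gene Jak3. RNA came from effector CD4 T cells (CD44+CD4) of wild type C57BL/6 mice (C57BL/6J in the methods) with EAE, a mouse model of multiple sclerosis, here induced by immunization against the myelin antigen MOG. Cells were sorted at disease onset from spinal cords (CNS, 2 libraries) or draining lymph nodes (dLN, 2 libraries), tissue of several mice was pooled, and the age and number of mice per library are not given in the sources used here. According to the methods, PMA and ionomycin, which mimic T-cell receptor signalling, were added to the cells after sorting, whereas the sample labels name no stimulation. The values are FPKM, fragments scaled to the length of the transcript and to the mapped fragments of the library. They can be set side by side between genes and, as far as their sums are alike, between libraries.

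The cytokines IL-2, IL-4, IL-7, IL-9, IL-15 and IL-21 share a receptor subunit, the common gamma chain encoded by Il2rg. Each pairs it with a private chain that gives the receptor its specificity, and IL-2 and IL-15 add the beta chain encoded by Il2rb. The gamma chain carries the kinase JAK3 and the partner chain carries JAK1, and STAT5 is the main transcription factor that IL-2, IL-7 and IL-15 activate. In T cells, IL-2 is made in a burst after activation and binds with high affinity where its alpha chain (CD25, encoded by Il2ra) is present, whereas IL-7 acts on resting and memory T cells through the chain encoded by Il7r.

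The 4 libraries held some 18560000 to 21800000 fragments each, as estimated from the steps in which low FPKM values rose. T-cell markers were present in every library, and Cd4 itself (named after its values were seen) stood at 502 and 531 FPKM in CNS and at 82.0 and 66.7 FPKM in dLN. Cd44, the other marker of the sort and also named after its values were seen, went the other way. It was at 112 FPKM in both CNS libraries and at 176 and 157 FPKM in dLN. The summed level of 13 T-cell markers was 4963 to 5081 FPKM in CNS and 2661 to 2775 FPKM in dLN. Markers of other cells were not even between the CNS libraries. The 9 measured granulocyte markers summed to 1.57 FPKM in CNS replicate 1 and 215 FPKM in CNS replicate 2, led by S100a8 and S100a9, and to at most 0.124 FPKM in dLN. The 13 measured microglia and macrophage markers summed to 61.4 and 218 FPKM in CNS and to 6.30 to 8.53 FPKM in dLN, with Lyz2 at 3.22 and 92.1 FPKM in CNS, and with Csf1r, Aif1, Tmem119, C1qa, C1qb and C1qc listed at 0 in both dLN libraries. CNS replicate 2 therefore stood apart. Values without it are given for some of the results, and the counts of called list genes include it unless stated otherwise. Y-linked Ddx3y was read in the CNS libraries alone and Xist almost entirely in the dLN libraries, so the sex of the mice and the tissue cannot be told apart.

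Of the 10 genes, 9 averaged 1 FPKM or more in CNS or dLN and entered the test, and Il9r did not. In limma on log2(FPKM + 1), 7 of the 9 passed a threshold of 0.05 after Benjamini-Hochberg adjustment, as did 74.9% of all 10634 genes tested. Jak3, Il7r, Il2rb and Il2rg were higher in CNS (4 of 9, against 37.8% of all genes), and Il2, Il2ra and Il15ra were lower (3 of 9, against 37.2%). Without CNS replicate 2 the 7 calls were 3 higher and 4 lower. The difference reached at least 2-fold in 5 of the 9, against 39.2% of all genes. The libraries of the tissues did not overlap in any of the 9 tested genes, as in 89.4% of all genes. These shares are near the background, and what set the genes apart from each other was the size and direction of their differences. The median log2 ratio, CNS over dLN, was 0.23 over the 9 genes and 0.045 over all genes tested. The p-values measure the spread between libraries only, since the labels do not say whether libraries came from separate groups of animals, and an exact permutation test of 2 against 2 libraries cannot go below p = 0.333 (two-sided).

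**Figure D1:**
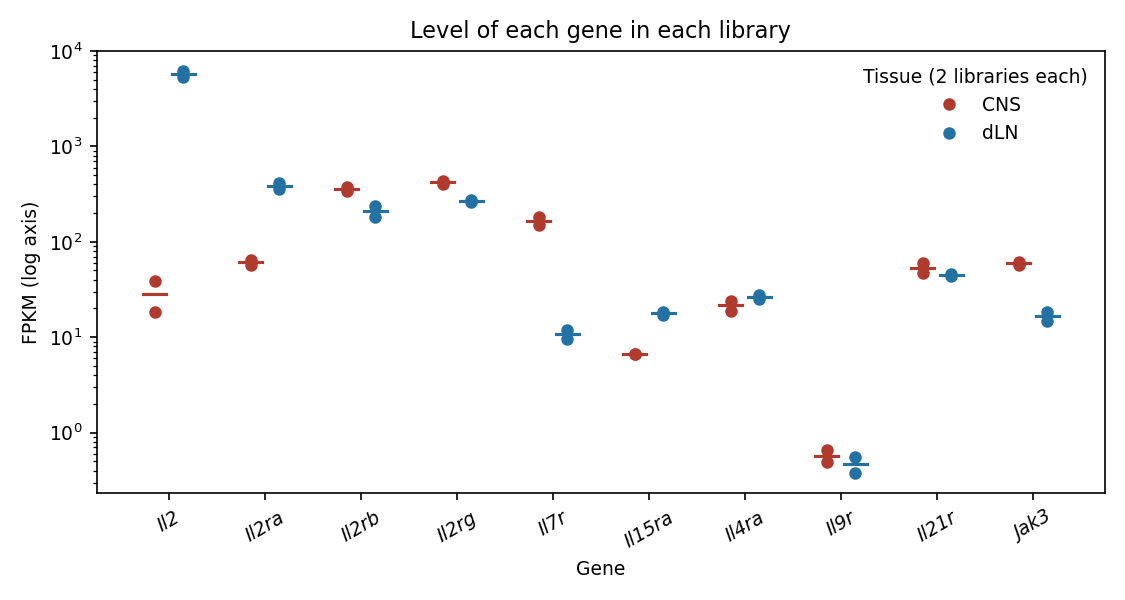
Level of each of the 10 genes in FPKM on a log axis, with CNS libraries in red, dLN libraries in blue and the mean of the 2 libraries as a bar. Il2 in dLN stands above every other value at 5363 and 6176 FPKM, Il2ra and Il7r are on opposite sides of each other in the tissues, and Il9r lies under 1 FPKM in all 4 libraries.

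Il2 showed the widest gap of the set. Il2 (Entrez gene 16183, mm10 chromosome 3, 37120716 to 37125954, minus strand) was at 18.2 FPKM in CNS replicate 1, 38.8 FPKM in CNS replicate 2, 5363 FPKM in dLN replicate 1 and 6176 FPKM in dLN replicate 2. In dLN it ranked 3 and 2 among all gene symbols and made up 1.04% and 1.20% of the summed FPKM of the library, whereas in CNS it ranked 3544 and 1898. The ratio of the tissue means was 202-fold, and the log2 ratio was -7.70 with a 95% interval from -8.62 to -6.78 (limma adjusted p = 0.000101). Only 3 of the 10634 genes tested had a lower log2 ratio. The CNS libraries differed from each other, yet both were far under dLN, and some 302 and 626 fragments lay behind the CNS values. In bulk samples, fewer cells that express a gene and less RNA per cell cannot be told apart. The 3' end of Il2 overlaps the end of Adad1 on the other strand, which was at most 0.0259 FPKM in any library.

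Most, not all, of the listed genes that PMA and ionomycin induce moved with Il2. Of 27 such genes, 17 were lower in CNS (37.2% of all genes), 4 higher (37.8% of all genes) and 6 not called. Their median log2 ratio was -2.50, with a summed level of 2656 and 3998 FPKM in CNS against 11380 to 11980 FPKM in dLN. The most abundant were Tnfsf8 and Il22, and both fell. Cd69 and Ifng, also on that list and named after their values were seen, were higher in CNS (log2 ratios 1.32 and 1.43). The part of stimulation in the difference of Il2 was not tested.

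The stretch directly before the start of Il2 is shown because this gene had the largest difference of the set, beside that of Il7r, which had the largest rise. Both are the 250 bases upstream of the RefSeq start on build GRCm38.p6, chr3:37125955-37126204 for Il2 and chr15:9529877-9530126 for Il7r, each read on the minus strand. Capitals mark matches on either strand to GGAAA (the core that NFAT factors bind), TGANTCA (AP-1), TTCNNNGAA (STAT) or TGTTTAC (Foxo). The interferon-stimulated response element was searched as well.

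Il2: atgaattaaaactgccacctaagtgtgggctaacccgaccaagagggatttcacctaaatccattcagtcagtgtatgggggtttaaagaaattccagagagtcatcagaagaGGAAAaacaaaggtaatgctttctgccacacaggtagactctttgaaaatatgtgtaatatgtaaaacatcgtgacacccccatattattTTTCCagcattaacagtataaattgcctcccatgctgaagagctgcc

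Il7r: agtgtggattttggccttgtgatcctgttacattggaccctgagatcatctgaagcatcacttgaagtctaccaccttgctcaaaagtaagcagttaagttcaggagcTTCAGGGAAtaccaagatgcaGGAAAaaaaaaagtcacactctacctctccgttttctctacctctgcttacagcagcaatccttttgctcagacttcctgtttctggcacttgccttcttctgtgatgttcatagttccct

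The Il2 stretch held 2 matches to GGAAA, with first bases 137 and 47 bases before the start, and none to the other motifs. The Il7r stretch held 1 match to GGAAA and 1 to TTCNNNGAA, the latter 142 bases before the start. GGAAA occurs in 55.6% of the 32817 promoters of the same length, TTCNNNGAA in 7.01%, TGANTCA in 6.75%, TGTTTAC in 3.16% and the interferon-stimulated response element in 2.97%. A match to TTCNNNGAA or to the last motif can overlap one to GGAAA. These matches describe the letters only.

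The chains of the IL-2 receptor did not move together. Il2ra (Entrez gene 16184, chromosome 2, 11642792 to 11693194, plus strand), which encodes the alpha chain CD25, was at 56.7 and 64.5 FPKM in CNS and at 412 and 359 FPKM in dLN. Both CNS values lay far below both dLN values. The mean was 6.36-fold higher in dLN, with a log2 ratio of -2.65 and a 95% interval from -2.94 to -2.36 (limma adjusted p = 9.39e-05). Regulatory T cells carry CD25 without stimulation. Of 7 markers of these cells, 6 were lower in CNS (37.2% of all genes) and 1 was higher (37.8% of all genes). Among the lower ones, Gpr83 (means 0.214 FPKM in CNS, 2.25 FPKM in dLN) passed the filter of 1 FPKM through dLN alone. The direction of Gpr83, named after its values were seen, thus followed from the filter. Foxp3, the defining factor of regulatory T cells, was also named after its values were seen. It was at 24.7 and 35.9 FPKM in CNS and at 81.6 and 78.2 FPKM in dLN. The summed markers were at 452 and 538 FPKM in CNS and at 543 and 562 FPKM in dLN. The part of regulatory T cells in the level of Il2ra was not tested.

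The beta chain gene went the other way. Il2rb (Entrez gene 16185, chromosome 15, 78480549 to 78495066, minus strand) was at 336 and 377 FPKM in CNS and at 236 and 181 FPKM in dLN. Every CNS value was above every dLN value, with means of 357 ± 28.6 and 209 ± 38.6 FPKM (SD, n = 2 each) and a log2 ratio of 0.78 (95% interval 0.39 to 1.17, limma adjusted p = 0.00674). Without CNS replicate 2, the library with more granulocyte and macrophage transcripts, the log2 ratio was 0.70 and Il2rb did not pass. Il2rb is also abundant in NK cells. The 9 NK-cell markers summed to 6.55 and 63.9 FPKM in CNS and to at most 0.304 FPKM in dLN, with Klra1 at 0 in all libraries, and Klra4, Klra7, Klra8 and Tyrobp at 0 in dLN. The gap between the CNS libraries was mostly Tyrobp, also a myeloid gene, at 1.84 and 55.9 FPKM, whereas Klrb1c was at 2.53 and 3.22 FPKM. The part of NK cells in the level of Il2rb was not tested.

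Il2rg, the gene of the shared gamma chain (Entrez gene 16186, chromosome X, 101264387 to 101268206, minus strand), was at 437 and 405 FPKM in CNS and at 271 and 259 FPKM in dLN. It was the most abundant of the 10 genes in CNS, above Il2rb in both libraries. Its log2 ratio was 0.67 (95% interval 0.46 to 0.87, limma adjusted p = 0.00128), and it stayed between 0.61 and 0.72 when each library was left out in turn. Of the 13 T-cell markers, 7 were higher in CNS (37.8% of all genes), 4 lower (37.2% of all genes) and 2 not called. Their median log2 ratio was 1.10, and their part in the levels of Il2rg and Il2rb was not tested. The annotation has a longer transcript on the same strand, Gm20489, that overlaps Il2rg and could share its reads.

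Jak3 (Entrez gene 16453, chromosome 8, 71676383 to 71690577, plus strand), which encodes the kinase bound to the gamma chain, rose more than its receptor gene. It was at 56.7 and 61.9 FPKM in CNS and at 18.4 and 14.8 FPKM in dLN, so the tissues were well apart. The ratio of the means was 3.58-fold and the log2 ratio 1.79 (95% interval 1.45 to 2.13, limma adjusted p = 0.000296). Within each library, Jak3 stood at 0.130 and 0.153 of the Il2rg level in CNS and at 0.0677 and 0.0571 in dLN, a ratio that the scaling of a library cannot change. Without CNS replicate 2 the log2 ratio of Jak3 was 1.72 (limma adjusted p = 0.00953), and the part of other cell types was not tested. Jak3 has a longer and a shorter annotated transcript, of 3934 and 3679 bases. The longer made up 59.9% and 56.6% of Jak3 in CNS and 40.5% and 49.6% in dLN, and its last part overlaps Insl3 on the same strand, which was under 1 FPKM in all libraries.

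**Figure D2:**
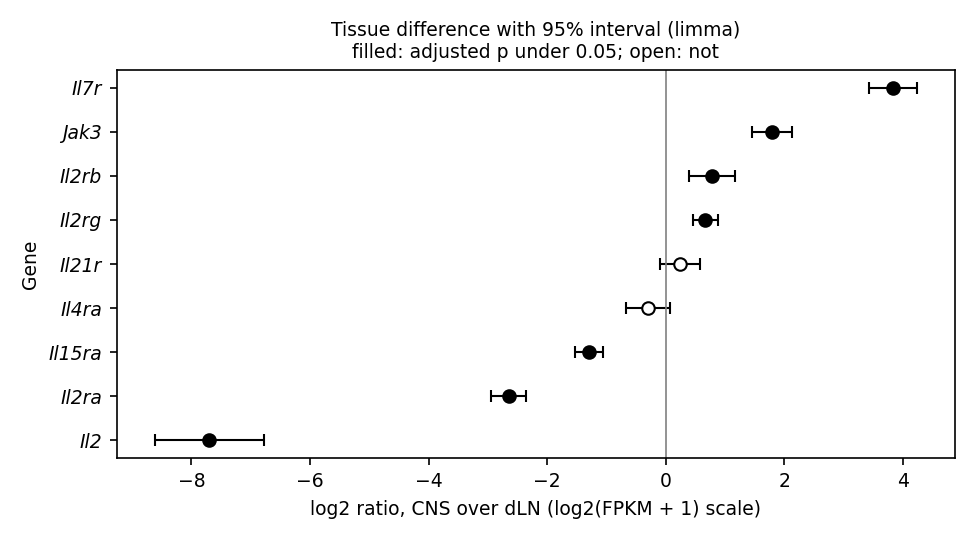
Log2 ratio, CNS over dLN, of the 9 tested genes on the log2(FPKM + 1) scale with its 95% interval from limma, filled where the adjusted p was under 0.05. Il7r is highest at 3.83 and Il2 lowest at -7.70, and the intervals of Il21r and Il4ra include 0.

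Il7r rose most. Il7r (Entrez gene 16197, chromosome 15, 9506159 to 9529876, minus strand), which encodes the private chain of the IL-7 receptor (CD127), was at 181 and 148 FPKM in CNS and at 11.9 and 9.46 FPKM in dLN. Both CNS libraries were far above both dLN libraries, with means 15.4-fold apart and a log2 ratio of 3.83 (95% interval 3.42 to 4.23, limma adjusted p = 9.15e-05). Among all genes tested it ranked 79 from the top. The level of Il7r was 3.19 and 2.30 times that of Il2ra in the CNS libraries and 0.0290 and 0.0263 times in the dLN libraries, so the order of these genes was opposite in the tissues. Without CNS replicate 2 the log2 ratio of Il7r was 3.97 (limma adjusted p = 0.00453), and the part of other cell types was not tested.

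Il15ra (Entrez gene 16169, chromosome 2, 11705293 to 11733985, plus strand), next to Il2ra on the chromosome, encodes the alpha chain that presents IL-15 to cells with the beta and gamma chains. It was at 6.62 and 6.72 FPKM in CNS and at 17.2 and 18.4 FPKM in dLN, and the libraries of each tissue lay close together. The mean was 2.67-fold higher in dLN (log2 ratio -1.29, 95% interval -1.53 to -1.06, limma adjusted p = 0.000259). Thus both alpha chains with sushi domains, Il2ra and Il15ra, fell in CNS while Il2rb, which both receptors use, rose.

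The difference in Il15ra was not even over its 9 annotated transcripts, which begin at an upstream start (5 transcripts) or a downstream start (4 transcripts). Transcripts from the downstream start were at 3.72 and 5.10 FPKM in CNS and at 16.1 and 16.5 FPKM in dLN, a log2 ratio of -1.69 (limma adjusted p = 0.000833 over 10880 start groups). Those from the upstream start were at 2.90 and 1.62 FPKM in CNS and at 1.05 and 1.88 FPKM in dLN (log2 ratio 0.40, limma adjusted p = 0.259), and there the tissues overlapped. The upstream start made up 43.9% and 24.1% of Il15ra in CNS and 6.12% and 10.2% in dLN. The log2 ratios of the starts differed by 2.09 (limma diffSplice adjusted p = 0.00493), a test that 38.2% of the 697 genes with several tested starts passed. The grouping was chosen after the transcript values were seen, and it rests on how the authors' program split reads among transcripts, with 206 to 575 estimated fragments for the whole gene.

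**Figure D3:**
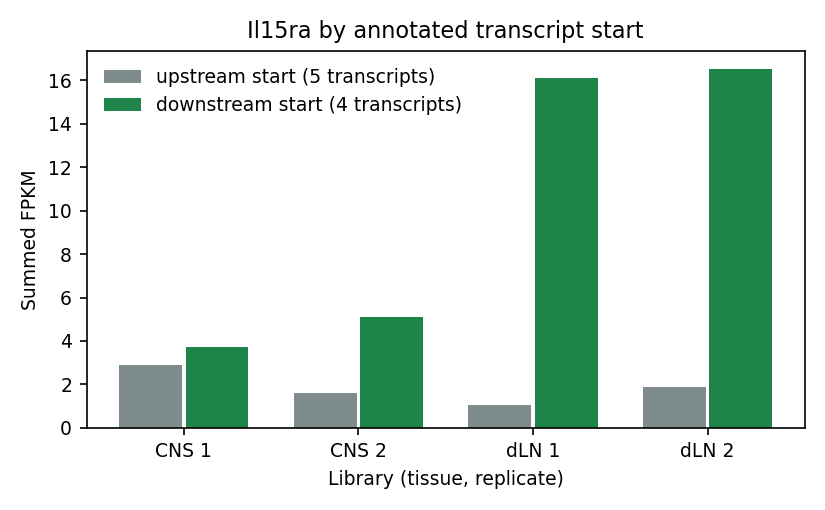
Summed FPKM of the Il15ra transcripts from the upstream start (grey) and the downstream start (green) in each library. The green bars are at 16.1 and 16.5 FPKM in dLN and at 3.72 and 5.10 FPKM in CNS, whereas the grey bars of the tissues overlap between 1.05 and 2.90 FPKM.

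The stretches before both Il15ra starts are shown because the transcripts that follow them differed in their tissue ratio. They are the 250 bases before each start on the plus strand of GRCm38.p6, chr2:11705043-11705292 for the upstream and chr2:11705462-11705711 for the downstream start, with the same motifs in capitals.

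Il15ra upstream start: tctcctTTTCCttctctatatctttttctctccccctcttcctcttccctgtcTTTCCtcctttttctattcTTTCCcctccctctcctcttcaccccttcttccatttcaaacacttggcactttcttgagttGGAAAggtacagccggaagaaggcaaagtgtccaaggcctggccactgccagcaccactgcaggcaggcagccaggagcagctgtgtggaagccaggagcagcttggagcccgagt

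Il15ra downstream start: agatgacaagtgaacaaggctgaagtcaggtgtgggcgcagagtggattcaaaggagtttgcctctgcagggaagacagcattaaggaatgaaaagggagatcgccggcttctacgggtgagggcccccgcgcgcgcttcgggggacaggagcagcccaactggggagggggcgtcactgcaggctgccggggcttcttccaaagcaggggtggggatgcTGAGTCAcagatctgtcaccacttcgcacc

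The upstream stretch held 4 matches to GGAAA and none to the other motifs. The downstream stretch held no GGAAA and 1 match to TGANTCA, 30 bases before the start, a motif found in 6.75% of promoters.

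The remaining private chains differed little or were scarce. Il4ra (Entrez gene 16190, chromosome 7, 125552282 to 125579474, plus strand), the receptor chain for IL-4 and IL-13, was at 18.9 and 24.1 FPKM in CNS and at 27.8 and 25.1 FPKM in dLN. The CNS libraries were both lower, but by no more than the spread within CNS in the closest pair, and the log2 ratio of -0.30 had a 95% interval from -0.67 to 0.072 (limma adjusted p = 0.114). Il21r (Entrez gene 60504, chromosome 7, 125603429 to 125633570, plus strand), directly after Il4ra on the chromosome, encodes the IL-21 receptor. It was at 47.1 and 59.2 FPKM in CNS and at 45.6 and 43.8 FPKM in dLN, with a log2 ratio of 0.23 (95% interval -0.11 to 0.57, limma adjusted p = 0.162). For both genes the call depended on the scaling or on 1 CNS library. With the same summed FPKM in each library Il4ra passed (log2 ratio -0.49, limma adjusted p = 0.0178), as it did without CNS replicate 2 (-0.46, limma adjusted p = 0.0423). With the same upper quartile Il21r passed (log2 ratio 0.37, limma adjusted p = 0.0401), as it did without CNS replicate 1 (0.40, limma adjusted p = 0.0266).

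Il9r (Entrez gene 16199, chromosome 11, 32188997 to 32200279, minus strand), the IL-9 receptor gene, was at 0.489 and 0.653 FPKM in CNS and at 0.558 and 0.375 FPKM in dLN. The tissues overlapped. These values stand for some 30 and 41 fragments in CNS and 30 and 24 in dLN, with exact Poisson 95% intervals of 20.2 to 42.8 and 29.4 to 55.6 in CNS and 20.2 to 42.8 and 15.4 to 35.7 in dLN, which cover counting error only. A difference between the tissues was not detectable at this depth.

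The order of the 10 genes changed with the tissue. In CNS, mean FPKM fell from Il2rg (421) over Il2rb (357), Il7r (165), Il2ra (60.6), Jak3 (59.3), Il21r (53.1), Il2 (28.5), Il4ra (21.5) and Il15ra (6.67) to Il9r (0.571). The libraries of Il2ra and Jak3, of Jak3 and Il21r, and of Il2 and Il4ra overlapped, so these neighbours did not differ beyond their spread. In dLN the order was Il2 (5769.5), Il2ra (386), Il2rg (265), Il2rb (209), Il21r (44.7), Il4ra (26.5), Il15ra (17.8), Jak3 (16.6), Il7r (10.7) and Il9r (0.466), and of these neighbours only Il15ra and Jak3 overlapped.

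Summed over the 8 receptor genes, the level was 1085 and 1086 FPKM in CNS and 1023 and 897 FPKM in dLN. The summed FPKM of all gene symbols was also higher in CNS, at 575728 and 604123 against 515287 and 512731 in dLN. The receptor sums were not scaled for this. Il2ra gave 5.23% and 5.94% of the receptor FPKM in CNS and 40.3% and 40.1% in dLN. Il7r gave 16.7% and 13.7% in CNS and 1.17% and 1.05% in dLN. Most of the rest was Il2rb, at 31.0% and 34.7% in CNS and 23.1% and 20.2% in dLN, and Il2rg, at 40.3% and 37.3% in CNS and 26.5% and 28.9% in dLN. The ratio of alpha to gamma chain transcripts of the IL-2 receptor was 0.130 and 0.159 in CNS and 1.52 and 1.39 in dLN, while that of beta to gamma chain transcripts overlapped between the tissues, at 0.769 and 0.930 in CNS and 0.869 and 0.701 in dLN. These shares describe RNA and were not tested.

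**Figure D4:**
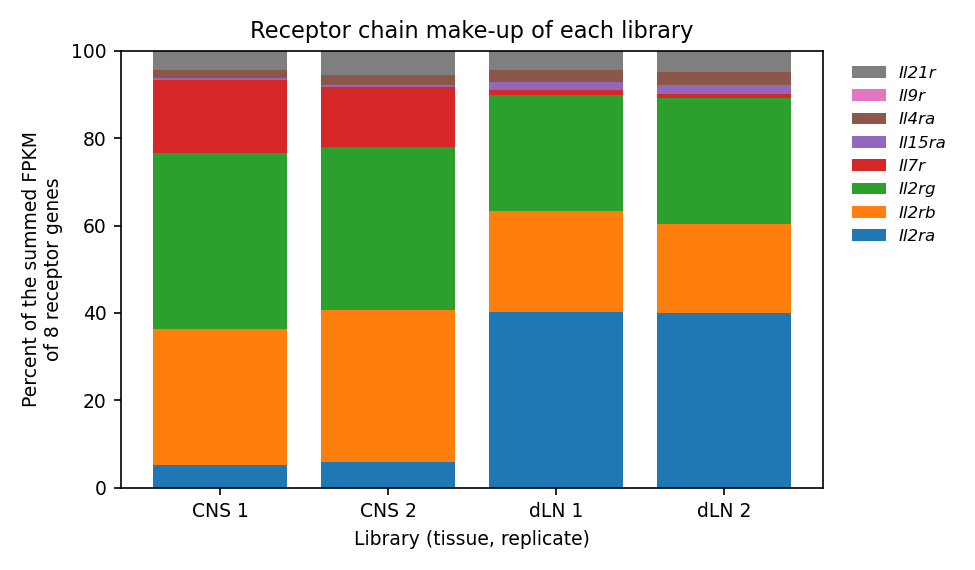
Share of each receptor gene in the summed FPKM of the 8 receptor genes, as stacked bars for each library. Il2ra (blue) takes 40.3% and 40.1% in the dLN libraries and 5.23% and 5.94% in the CNS libraries, where Il7r (red) takes 16.7% and 13.7%.

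Of 7 other ligands of these receptors, 5 were tested and lower in CNS (37.2% of all genes), as Il2 was. Of these, Il4, Il9 and Tslp passed the filter of 1 FPKM through dLN alone, so that their direction followed from it, and the same filter left out Il7 and Il15, which were higher in CNS. With no filter all 7 were called, 2 higher and 5 lower, and the median log2 ratio was -2.03 in place of -4.54. Il4, which drives the Th2 fate, was listed at 0 and 0.225 FPKM in CNS, 0 and 2 fragments, and at 266 and 273 FPKM in dLN, so it was at least 763.5-fold lower in CNS against a floor of 3 fragments per library. Il21, the ligand of Il21r and a product of follicular helper and Th17 cells, was at 3.95 and 6.14 FPKM in CNS and at 188 and 234 FPKM in dLN (log2 ratio -5.15, limma adjusted p = 9.15e-05). Il13, which shares Il4ra with Il4, was at 1.27 and 2.69 FPKM in CNS and 69.8 and 63.0 FPKM in dLN. Il9 and Tslp were listed at 0 in CNS and at about 2.04 and 3.10 FPKM in dLN, at least 5.02-fold and 20.6-fold lower in CNS. Il7 and Il15, which stromal and myeloid cells make, had means under 1 FPKM in both tissues. Il15 was at 0.463 and 0.725 FPKM in CNS and at most 0.0415 FPKM in dLN, and Il7 at 0.165 and 0.162 FPKM in CNS and at most 0.0198 FPKM in dLN.

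Among the kinases and transcription factors that act below these receptors, 3 of 8 were higher and 4 lower in CNS. Over all genes tested, 37.8% were higher and 37.2% lower. Jak1, the partner kinase of Jak3, was at 176 and 156 FPKM in CNS and at 53.9 and 49.97 FPKM in dLN (log2 ratio 1.66, limma adjusted p = 0.000179). Jak2, which serves other cytokine receptors, went the other way, at 29.4 and 31.6 FPKM in CNS and 191 and 214 FPKM in dLN (log2 ratio -2.69). Stat5a, a main effector of IL-2, fell with Il2ra, from 121 and 123 FPKM in dLN to 13.4 and 19.6 FPKM in CNS (log2 ratio -2.84, limma adjusted p = 0.000216). Its neighbour gene Stat5b was lower by far less (log2 ratio -0.49), as was Stat6, the effector of IL-4 (-0.45). The kinase gene Tyk2 rose (log2 ratio 1.01), and Stat3, which IL-21 activates, did not pass (0.23, limma adjusted p = 0.0559). Stat5a and Stat5b are closely related in sequence and could share reads. The median of the list was -0.11 and turned to 0.023 with the same upper quartile in each library.

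Of the 15 tested adaptor and kinase genes below the receptors, 6 were higher, 5 lower and 4 did not pass, and without dLN replicate 2 the 11 calls became 7. The largest rises were in Mapk3 (ERK1, log2 ratio 3.11), Pik3r1 (a regulatory subunit of PI3-kinase, 2.02) and Lck (1.58), and the falls among genes that averaged 10 FPKM or more in CNS or dLN were in Pik3ca (-1.19), Ptpn11 (-0.33) and Akt2 (-0.30). Below that level, Mtor (-0.76) and Rptor (-0.50), named after their values were seen, fell as well. Of 9 feedback genes, 4 were higher and 3 lower. For the adaptor and the feedback list alike, the shares over all genes were 37.8% higher and 37.2% lower. Socs3 was at 44.3 and 77.6 FPKM in CNS and 10.6 and 10.1 FPKM in dLN (log2 ratio 2.39), Socs2 had a log2 ratio of 2.16 and the phosphatase gene Ptpn6 one of 1.72, whereas Sh2b3 (-2.20), Dusp6 (-1.06) and Socs1 (-0.39) fell. Of the other receptor chains around this family (Crlf2 and Il13ra1 named after their values were seen), Crlf2, which joins Il7r to bind TSLP, did not pass (log2 ratio 0.16, limma adjusted p = 0.323). Il6st, the shared chain of the IL-6 family, fell (log2 ratio -3.06), and Il13ra1, with CNS and dLN means under 1 FPKM, was not tested.

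Over all genes, 37.8% were higher and 37.2% lower in CNS, the background for the lists here. Of 28 tested genes that IL-2 and STAT5 induce, 11 were higher and 13 lower in CNS. Among the higher ones, Eomes (means 2.52 FPKM in CNS, 0.182 FPKM in dLN) passed the filter of 1 FPKM through CNS alone. The direction of Eomes, named after its values were seen, thus followed from the filter. The 28 log2 ratios had a median of -0.062 (0.069 with the same upper quartile) against 0.045 over all genes. With a library left out, the median was 0.092 (CNS replicate 1), -0.12 (CNS replicate 2), 0.036 (dLN replicate 1) or -0.11 (dLN replicate 2). The genes that fell most were Myc (-3.95), a growth regulator, Irf4 (-3.31) and Tnfrsf4, the gene of the costimulatory receptor OX40 (-2.51). Myc, Irf4 and Tnfrsf4 are also on the list of genes that PMA and ionomycin induce. Among the 28 genes, the largest rises were in Il12rb2 (3.98), a chain of the IL-12 receptor, Ccnd3 (3.08) and Bcl2 (2.24). Ccnd3 is a cyclin gene and Bcl2 a survival gene. Of 9 genes that IL-2 lowers, 3 were higher and 5 lower, and without either dLN replicate the 8 calls became 5. Klf2, a factor that keeps T cells recirculating, was at 179 and 216 FPKM in CNS and at 2.52 and 2.28 FPKM in dLN (log2 ratio 5.86), and Tcf7 (2.40) and Id3 (1.16) rose as well, while Il6st (-3.06), Il6ra (-2.06) and Ccr7 (-1.30) fell.

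Genes that regulate Il7r or share the factor Foxo1 with it numbered 12, of which 7 were higher (37.8% of all genes) and 3 lower (37.2% of all genes), with a median log2 ratio of 0.81. The 3 lower calls became 1 without dLN replicate 1 and 1 without dLN replicate 2. Klf2 and S1pr1 (log2 ratios 5.86 and 4.97), both targets of Foxo1 and known for the exit of T cells from lymph nodes, rose most, followed by Runx3 (2.48). Gfi1, which represses Il7r, fell (-1.33), as did Ccr7 (-1.30) and Gabpa (-0.28). Of 21 factors that act on Il2 transcription, 8 were higher (37.8% of all genes) and 9 lower (37.2% of all genes). The AP-1 genes Jun, Fos and Junb rose, with log2 ratios of 4.49, 3.29 and 2.38, Jun from 13.8 and 14.4 FPKM in dLN to 293 and 391 FPKM in CNS. The NF-kappaB genes Nfkb1 and Rel fell (-3.10 and -2.10), and Fosl1 was at most 3 fragments in either CNS library and at least 127-fold lower there. Fosl1 passed the filter of 1 FPKM through dLN alone, so that its direction followed from it.

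**Figure D5:**
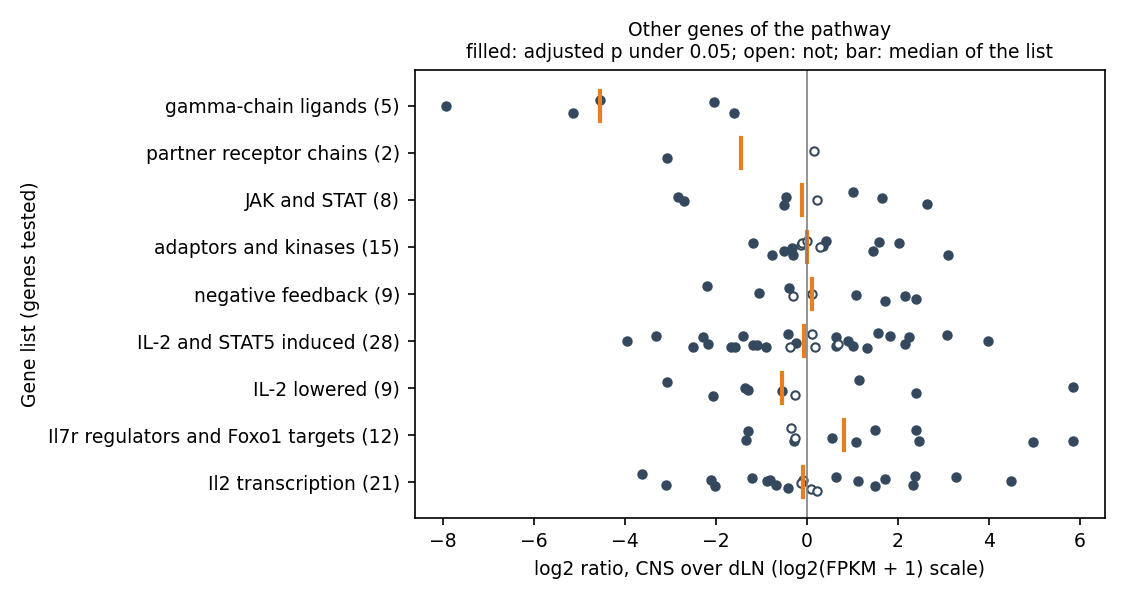
Log2 ratio, CNS over dLN, of each tested gene of 9 lists around the receptors, 1 row per list with the number of genes tested in brackets, points filled where the adjusted p was under 0.05 and the list median as an orange bar. The 5 tested ligand genes lie left of 0, where Il7 and Il15 are absent because they were under the filter of 1 FPKM, and most other lists spread to both sides.

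Likeness of pattern was measured over 6410 genes that averaged 10 FPKM or more in CNS or dLN. It was taken as the Euclidean distance of log2(FPKM + 1) over the 4 libraries, centred on each gene's mean. Nearest to Il2 were Il4 (distance 0.597), Il17f (0.610) and Snora64 (1.26), nearest to Il2ra were Ccr6 (0.0335), Gpatch4 (0.152) and Tmem97 (0.153), and nearest to Il7r were Acss2 (0.105), I830012O16Rik (0.134) and Cd38 (0.192). With 4 libraries in 2 tissues, the distance mostly reflects the size of the tissue difference.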

How the data were processed

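The deposited values are FPKM, computed by the authors for 33819 RefSeq transcripts (build mm10) after trimming and mapping, with a table for each tissue and a library kit that does not mark strand. Aligner and quantification program are not given in the sources used here. In the CNS table both library names share a header cell, and its columns were assigned in the order of the names. FPKM was summed by gene symbol, leaving out 565 transcripts without one. Genes that averaged 1 FPKM or more in CNS or dLN were tested with limma 3.58.1 (R 4.3.3, trended eBayes) on log2(FPKM + 1), tissue as the only term, and adjusted by Benjamini-Hochberg over all genes. The scale understates changes of low genes. Depth came from FPKM steps (90.3% to 93.5% of low values within 0.05 of a whole fragment, where chance gives 10%). The fit was run on simulated data with far fewer changed genes than the calls here, so it does not check those calls. Promoters came from RefSeq, matched for 9 of 10 genes (none for Il2rb). Motifs were searched in 250 bases. The genes and lists were chosen with earlier results of these data known. Named were all 10 genes, up to 3 called genes per direction and list with at least 10 FPKM and no overlap, all ligands, JAK and STAT genes, the 3 nearest genes of Il2, Il2ra and Il7r, and the top 2 markers per list, and other genes were chosen after their values were seen. Some genes that this rule names are not reported here. Of 204 list genes, 4 were not measured. Python 3.11.15, numpy 2.4.6, pandas 2.3.3 and matplotlib 3.10.9 were used. Alternatives covered pseudocounts, scalings, filters, the highest transcript, a replicate block, eBayes without trend and leaving out each library.

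Of the other markers, the most abundant were Thy1 and Lat (T cells) and Cd8b1 and Cd8a (CD8 T cells, sum 3.40 to 5.40 FPKM). Ctla4 and Tnfrsf18 led for regulatory T cells (452 to 562 FPKM) and Cd79b and Cd79a for B cells (at most 1.83 FPKM). Itgax and Xcr1 led for dendritic cells (at most 15.8 FPKM) and Mbp and Gfap for the neural list (50.1 to 58.1 FPKM). Nearly all of the neural sum was Mbp, at 48.6 and 44.5 FPKM in CNS and 55.5 and 57.7 FPKM in dLN. Gfap was at most 2.51 FPKM.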

Additional observations from a re-analysis of the deposited data

How the results depend on the processing

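The other filters, the replicate block and eBayes without trend cannot change a gene's log2 ratio, so there only the call could differ. The same holds for the highest transcript where a gene has a single transcript. Of 126 comparisons of a gene's log2 ratio with another setting, these included, 121 held both the direction and the call, and none changed sign. The exceptions were Il2rb, which lost its call without CNS replicate 2, and Il4ra (-0.49 with the same summed FPKM) and Il21r (0.37 with the same upper quartile), which gained it there and without 1 CNS library each. The cause was not tested. With each library left out, ratios ranged from 0.59 to 0.97 for Il2rb, -0.46 to -0.13 for Il4ra and 0.071 to 0.40 for Il21r, and the genes called numbered 6596 to 7363. All genes called numbered 7968, and 4168 when a difference of 2-fold or more was required as well. The share of calls higher in CNS was 50.4%, 43.1% with the same sum (median log2 ratio -0.13) and 55.6% with the same upper quartile (0.16).

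Among the lists, 8 called genes that IL-2 lowers became 5 without a filter, 5 ligands became 3 at a minimum of 5 FPKM, with fewer genes tested, and 7 without a filter, and with each library left out counts ranged from 5 to 9 for genes that IL-2 lowers, 7 to 9 for adaptors (11 with all libraries) and 1 to 2 for partner chains. Medians near 0 changed sign: feedback genes to -0.086 with the same sum, JAK and STAT genes to 0.023, adaptors to 0.13, induced genes to 0.069 and Il2 transcription to 0.041 with the same upper quartile, adaptors to 0.0076 with the same median and 0.15 at 5 FPKM, and partner chains to 0.16 without a filter. With each library left out they ranged from -0.12 to 0.092 for induced genes, -0.012 to 0.0086 for adaptors and -0.016 to 0.24 for feedback genes. Il2ra was 40.5% of the dLN receptors by the highest transcript and 40.2% by the sum.

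The replicate numbers were not taken to pair the libraries, since the replicate differences of the tissues had a correlation of 0.0933 across genes. Ddx3y was at 12.7 and 11.2 FPKM in CNS and at 0 in dLN. Xist was at most 0.0026 FPKM in CNS and at 26.6 and 22.3 FPKM in dLN. By these sex-linked transcripts, the CNS and dLN cells came from different mice. A replicate block in the fit gave 7828 calls, and it changed no call of the 9 genes. As each replicate number occurs in both tissues, the block cannot change a log2 ratio, only its error.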
